A study of Homo sapiens with 6 samples.

Results

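The genes CS and DCAKD were described by the regions of their transcripts that were cross-linked to DHX9 in HEK293, a widely used cell line of human embryonic kidney origin. CS encodes citrate synthase, the mitochondrial enzyme that joins acetyl-CoA to oxaloacetate at the entry of the tricarboxylic acid cycle. DCAKD encodes a protein named for its dephospho-CoA kinase domain, the activity that completes the synthesis of coenzyme A. The members were the peak regions on the minus strand that overlapped chr12:56665483-56694176 for CS and chr17:43100706-43138499 for DCAKD (assembly hg19), spans of 28.694 and 37.794 kb. They numbered 106 of the 28449 peak regions of the study, with 37 in CS and 69 in DCAKD. The members were chosen by the measured peak positions, and the pair was selected on its dense DHX9-Rb peaks and its unequal numbers of DHX9-mAb peaks, so peak numbers and the share marked by both antibodies are given as a description, with no test.

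DHX9 (RNA helicase A) opens paired RNA strands and works mainly in the nucleus. It is known to bind transcripts that carry Alu repeats in opposite orientation, since such repeats pair with each other within an RNA. Alu repeats are common in the introns of human genes, so such pairing can occur in RNA that is later spliced out.

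The assay, FLASH, cross-links RNA to bound protein with ultraviolet light, captures the protein with an antibody and sequences the RNA fragments that come with it. The labels name no genotype or treatment besides the irradiation, and the samples fell into 3 groups of 2 biological replicates: the DHX9 antibody DHX9-mAb, the DHX9 antibody DHX9-Rb, and the control immunoglobulin IgG-Rb. The values were 2 peak lists, 1 per DHX9 antibody, with 6831 DHX9-mAb and 21618 DHX9-Rb peaks. Each list stands for both replicates of its antibody, so no value per replicate, no replicate error and no level in the IgG-Rb samples can be set beside a peak. The lists give positions and strands only, and the read depth behind a peak is unknown. A peak in a gene also depends on how much of that transcript the cells make, which was not measured here. The annotation at hand is on another assembly, so the peaks were placed by their distance from the 5′ end of the span and not by exon, intron or UTR. Both genes lie on the minus strand, so their 5′ ends have the higher coordinates.

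Both transcripts were marked along most of their length by DHX9-Rb, and DCAKD was marked more densely than CS by both antibodies. CS held 8 DHX9-mAb and 29 DHX9-Rb peaks, and DCAKD held 20 DHX9-mAb and 49 DHX9-Rb peaks. Per kb of span, CS had 0.279 DHX9-mAb and 1.01 DHX9-Rb peaks. DCAKD had 0.529 DHX9-mAb and 1.3 DHX9-Rb peaks. The density in CS was thus 0.527 times that in DCAKD with DHX9-mAb and 0.78 times with DHX9-Rb. In nucleotides, the CS span was covered to 5.42% by DHX9-mAb peaks and to 29.2% by DHX9-Rb peaks. The DCAKD span was covered to 12.0% and 34.9% by the same antibodies. Every one of the 106 peaks lay wholly inside its span, and no peak of either antibody was on the plus strand of either span.

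**Figure D1:**
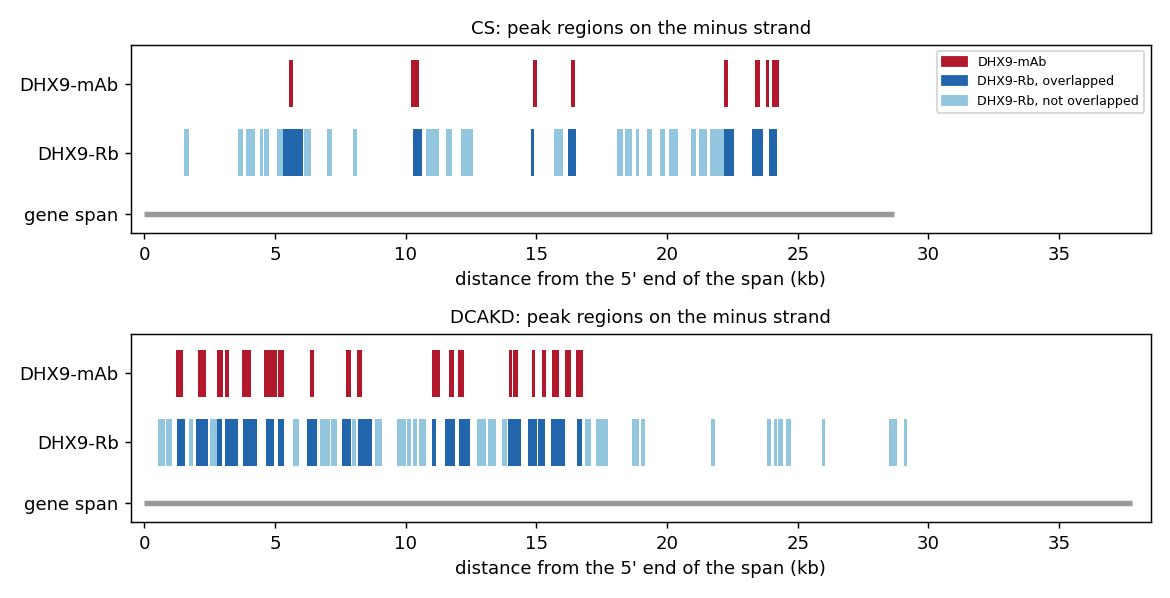
Peak regions of CS (top) and DCAKD (bottom) by distance from the 5′ end of the gene span, in kb, with DHX9-mAb peaks in red, DHX9-Rb peaks that overlap a DHX9-mAb peak in dark blue and other DHX9-Rb peaks in light blue; the grey line is the span. The 20 DHX9-mAb peaks of DCAKD sit in the 5′ part of the span, while 4 of the 8 in CS sit together near the 3′ end of the marked stretch.

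In these lists, a smaller part of the DHX9-Rb sites was also marked by DHX9-mAb in CS than in DCAKD. The pair was chosen with this contrast known, so the intervals given here only describe the counts and test nothing. In CS, 7 of 29 DHX9-Rb peaks met a DHX9-mAb peak by at least 1 nt, or 24.1% (95% Wilson interval 12.2 to 42.1). In DCAKD, 19 of 49 did so, or 38.8% (26.4 to 52.8). The difference, CS minus DCAKD, was -14.6 percentage points (95% Newcombe interval -33.0 to 7.16). In the whole DHX9-Rb list the share was 28.6%. Both genes were near that background, CS below it and DCAKD above it, and the intervals of both include it. With a partner required to cover 50% of the DHX9-Rb peak, the shares were 10.3% in CS and 20.4% in DCAKD. The whole list then had 21.2%, so under that rule DCAKD no longer stood above it. The length that this rule requires rises with the width of the DHX9-Rb peak. With an overlap of at least 50 nt, CS had 20.7%, DCAKD 38.8% and the whole list 26.8%. The intervals cover counting error only, and neighbouring peaks of a transcript are not independent. Counted by peaks, with 1 nt sufficing, nearly all DHX9-mAb peaks of both genes met a DHX9-Rb peak. All 8 DHX9-mAb peaks of CS and 19 of the 20 of DCAKD overlapped a DHX9-Rb peak, against 88.0% of the whole DHX9-mAb list. In sequence covered, 13.3% of the DHX9-Rb nucleotides of CS and 27.8% of those of DCAKD were also covered by DHX9-mAb, against 22.0% in the whole list. Of the DHX9-mAb nucleotides, 71.7% in CS and 80.9% in DCAKD were also covered by DHX9-Rb, against 73.8% in the whole list.

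The DHX9-mAb peaks of CS were sparse over most of the gene and closest together at its 3′ side. Their midpoints lay 5.6, 10.34, 14.96, 16.4, 22.27, 23.46, 23.85 and 24.16 kb from the 5′ end. Only 2 were in the 5′ 50% of the span and 6 were in the 3′ 50%. The last 4 fell between 56669877 and 56671993, with 1018, 238 and 103 nt of free sequence between them. Between the earlier peaks, and from these to the last 4, it was 4500, 4395, 1279 and 5692 nt. In the first 5 kb of the CS span, DHX9-mAb had 0 peaks and DHX9-Rb had 5.

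The DHX9-Rb peaks of CS were spread more evenly. Their midpoints ran from 1.62 to 24.05 kb, with a median of 14.85 kb, and 14 lay in the 5′ 50% of the span and 15 in the 3′ 50%. In steps of 5 kb from the 5′ end they numbered 5, 5, 5, 7 and 7, and beyond 25 kb there were none. Neither antibody marked the 3′ end of the gene: the first 4394 nt from that end held no peak of either list. The longest series of DHX9-Rb peaks without a DHX9-mAb partner held 9 peaks over 4.07 kb, between 56672007 and 56676074. This series adjoined the 3 partnered peaks at the 3′ side, and its nearest member was 13 nt from a DHX9-mAb peak.

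DCAKD had its peaks of both antibodies toward the 5′ end. All 20 DHX9-mAb peaks lay in the 5′ 50% of the span, with midpoints between 1.35 and 16.66 kb and a median of 9.69 kb. Of the 49 DHX9-Rb peaks, 40 lay in the 5′ 50%, and their median midpoint was 10.64 kb. In steps of 5 kb from the 5′ end, DHX9-mAb had 6, 4, 6, 4, 0 and 0 peaks and DHX9-Rb had 10, 12, 11, 8, 5 and 3. The last 8.6 kb of the DCAKD span had no DHX9-Rb peak, and the last 21.0 kb had no DHX9-mAb peak. The 5′-most DHX9-Rb peak, chr17:43137706-43137964, ended 535 nt from the end of the span.

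**Figure D2:**
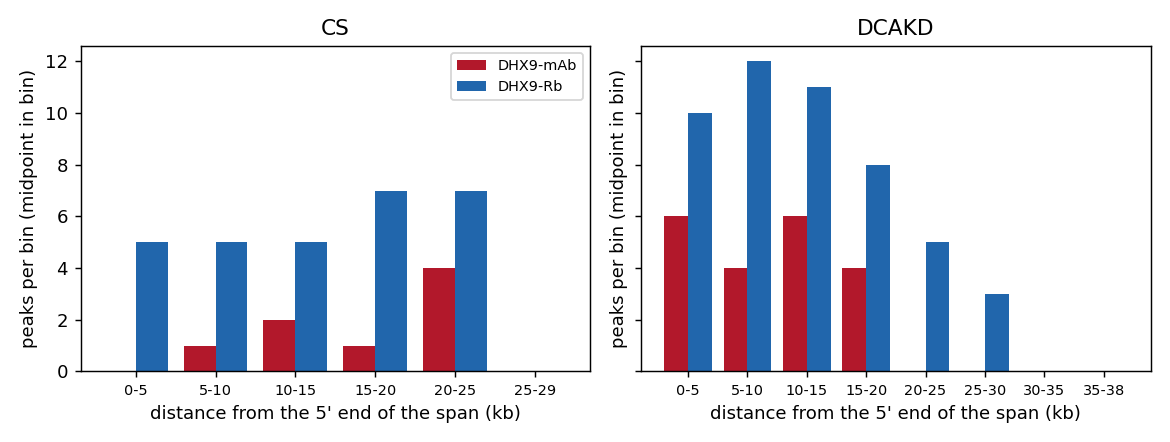
Number of peaks with their midpoint in each 5 kb step from the 5′ end of the span (the last step of each gene is shorter), with DHX9-mAb in red and DHX9-Rb in blue. In CS the DHX9-Rb numbers stay between 5 and 7 as far as 25 kb, and in DCAKD they are highest at 5 to 10 kb, with 12.

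In both genes, the partnered share of DHX9-Rb peaks was higher within the stretch from the first to the last DHX9-mAb peak. This follows from the cut, which leaves out only unpartnered peaks. In DCAKD that stretch measured 15.58 kb and held 34 DHX9-Rb peaks. Of these, 19 (55.9%) overlapped a DHX9-mAb peak, against 38.8% over the span. A further 13 DHX9-Rb peaks lay 3′ of it, over 12.34 kb between 43109301 and 43121637, and none was partnered. In CS the same stretch measured 18.78 kb and held 23 DHX9-Rb peaks. Of these, 7 (30.4%) were partnered, against 24.1% over the span. The whole list, which was not cut in this way, had 28.6%. The other 6 DHX9-Rb peaks of CS lay 5′ of it, between 56688880 and 56692646. Outside that stretch, unpartnered DHX9-Rb peaks thus lay at the 5′ side in CS and mostly at the 3′ side in DCAKD, where 2 more lay 5′ of it. The stretch was drawn from the peaks themselves, so these shares describe the lists and test nothing. The 13 DHX9-Rb peaks at the 3′ side of DCAKD were also narrow, with a median of 158 nt (range 133 to 303), against 285 nt for the 34 within the stretch. The 6 at the 5′ side of CS had a median of 208.5 nt, against 299 nt for the 23 within. By construction the peaks within include all partnered ones, whose median width was greater in both genes. The unpartnered DHX9-Rb peaks within had medians of 240 nt in CS and 243 nt in DCAKD, so position and partner status are mixed in these widths.

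Spacing was tighter in DCAKD than in CS with both antibodies. Gaps depend on the number of peaks per length, on which the pair was chosen, so spacing too is only a description. The free sequence between neighbouring DHX9-mAb peaks had a median of 1279 nt in CS (7 gaps, interquartile range 628 to 4447.5) and 362 nt in DCAKD (19 gaps, 204.5 to 559). Between DHX9-Rb peaks it was 254 nt in CS (28 gaps, 123.75 to 609.25) and 136 nt in DCAKD (48 gaps, 59.25 to 276). Over the whole lists, neighbours on a strand that were no more than 10 kb apart had a median gap of 375.5 nt in the DHX9-mAb list and 299 nt in the DHX9-Rb list. The DHX9-mAb peaks of CS were thus the only ones of the 4 sets with a median gap above that of their list. From start to start, the median distance in CS was 1455 nt for DHX9-mAb peaks and 509.5 nt for DHX9-Rb peaks, and in DCAKD it was 551 and 377 nt.

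**Figure D3:**
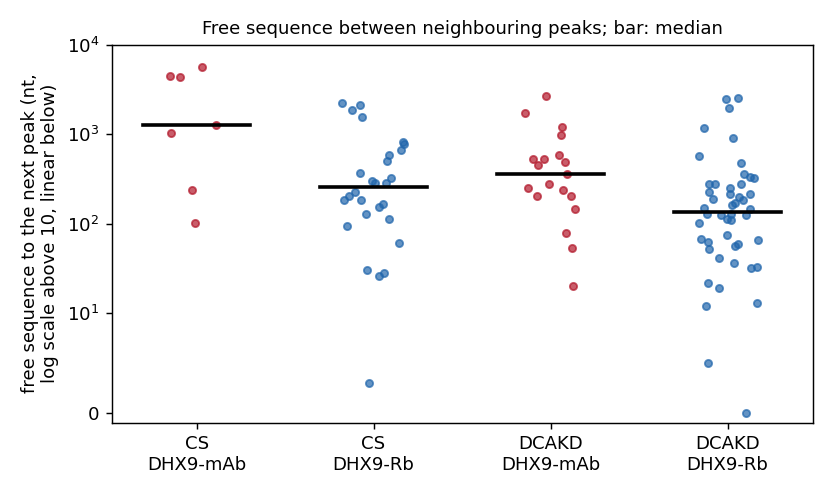
Free sequence between each peak and its next neighbour in the 3′ direction, in nt, for each gene and antibody (the axis is logarithmic above 10 nt and linear below); each point is a gap and the bar is the median. The medians are 1279 nt for DHX9-mAb and 254 nt for DHX9-Rb in CS, and 362 and 136 nt in DCAKD.

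Some DHX9-Rb peaks nearly touched. Gaps under 100 nt made up 6 of the 28 DHX9-Rb gaps of CS (21.4%) and 17 of the 48 of DCAKD (35.4%), against 24.1% of the gaps within 10 kb in the whole list. The closest DHX9-Rb pair of CS, chr12:56688112-56688876 and chr12:56688880-56689105, was separated by 3 nt. In DCAKD the DHX9-Rb peaks chr17:43129783-43130233 and chr17:43130143-43130324 overlapped each other, the only such pair in either gene. Wide gaps occurred too. The longest DHX9-Rb gap was 2218 nt in CS, between 56679393 and 56681612, and 2524 nt in DCAKD, between 43116812 and 43119337. Each gene had 4 DHX9-Rb gaps over 1000 nt. In DCAKD all 4 lay 3′ of the last DHX9-mAb peak, and in CS they were scattered along the marked stretch.

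The DHX9-Rb peaks of both genes had medians above that of their list and close to each other. The median was 252 nt in CS (interquartile range 192 to 343, range 114 to 765) and 245 nt in DCAKD (174 to 339, range 133 to 540), against 201 nt in the whole list (152 to 273). Of the DHX9-Rb peaks, 19 of 29 in CS and 31 of 49 in DCAKD exceeded that list median. Such widths were common where DHX9-Rb peaks were dense: in the 82 runs of at least 30 neighbouring DHX9-Rb peaks on 1 strand, the middle value of the run medians was 229.75 nt, and 47 runs had narrower peaks than the run with CS (234 nt) and 56 than the run with DCAKD (245 nt). The DHX9-mAb peaks had a median of 172.5 nt in CS (163.25 to 204, range 127 to 307) and 209.5 nt in DCAKD (182.75 to 263, range 113 to 475), against 191 nt in the whole list (146 to 256.5). Only 2 of the 8 DHX9-mAb peaks of CS exceeded the list median, and 14 of the 20 of DCAKD did. With 8 peaks, the median of CS is loosely fixed, and its interquartile range overlaps that of DCAKD.

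**Figure D4:**
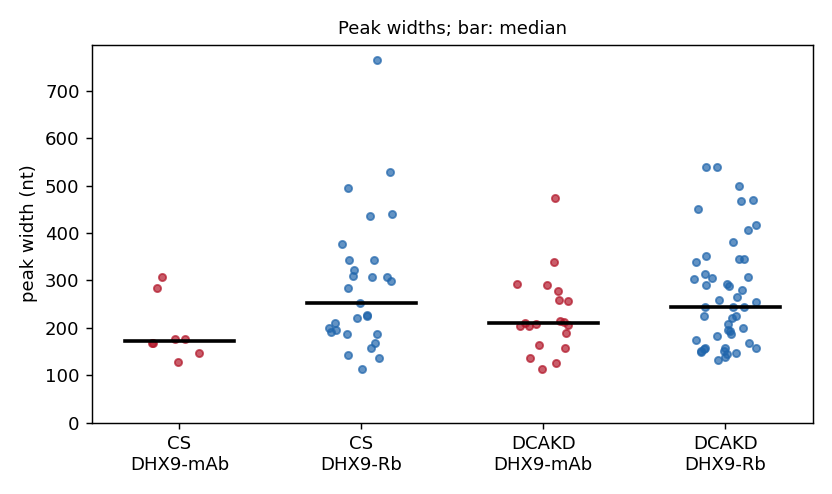
Width of each peak in nt for each gene and antibody, with the median as a bar. DHX9-Rb medians are 252 nt in CS and 245 nt in DCAKD, DHX9-mAb medians are 172.5 nt in CS and 209.5 nt in DCAKD, and the widest peak, 765 nt, is a DHX9-Rb peak of CS.

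Among DHX9-Rb peaks, those of at least 400 nt made up a larger part in both genes than in the whole list, which was not so with DHX9-mAb. They numbered 5 in CS (17.2%) and 8 in DCAKD (16.3%), against 7.68% of the whole list. Of these wide DHX9-Rb peaks, 2 of the 5 in CS and all 8 in DCAKD overlapped a DHX9-mAb peak, against 54.4% of the 1660 in the whole list. With DHX9-mAb, 0 of 8 peaks in CS and 1 of 20 in DCAKD (5.0%) reached 400 nt, against 6.05% of that list. The widest, chr12:56688112-56688876, spanned 765 nt of CS and contained the DHX9-mAb peak chr12:56688489-56688657 of 169 nt. The widest of DCAKD reached 540 nt, a width shared by chr17:43122402-43122941 and chr17:43134201-43134740. With DHX9-mAb, the widest peak was chr12:56683682-56683988 in CS (307 nt) and chr17:43133427-43133901 in DCAKD (475 nt).

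Partnered DHX9-Rb peaks were the wider ones in both genes. In CS the median width was 343 nt for the 7 partnered peaks (range 142 to 765) and 223.5 nt for the other 22 (114 to 529). In DCAKD it was 345 nt for the 19 partnered peaks (139 to 540) and 215 nt for the other 30 (133 to 351). In the whole list the medians were 243 and 190 nt. The ranges overlapped in both genes, and a wide peak is more easily met by another, so the 2 measures are linked.

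Where peaks of the antibodies met, their midpoints were offset to varying degrees in both genes. The 8 overlapping pairs of CS had midpoints a median of 105.5 nt apart (range 4.5 to 201), and 2 pairs lay within 50 nt. The 20 pairs of DCAKD were a median of 65.25 nt apart (range 2.5 to 267.5), and 9 lay within 50 nt. Over the 6781 overlapping pairs of the whole lists the median was 43 nt, and 54.5% lay within 50 nt. The median offset of both genes was thus above that of the lists, while single pairs fell on either side of it. Partnered DHX9-Rb peaks were also wider in CS and DCAKD (medians of 343 and 345 nt) than in the whole list (243 nt). A link of the offset to width was not tested. A pair must overlap to be counted, so distances much beyond a peak width cannot occur. The shift had no constant side: the DHX9-mAb midpoint was the more 5′ one in 5 of 8 pairs in CS and in 11 of 20 in DCAKD. The DHX9-mAb peak was narrower in 6 pairs of CS and 15 of DCAKD, with median width ratios of 0.51 and 0.555 (DHX9-mAb over DHX9-Rb). It lay wholly inside the DHX9-Rb peak in 3 pairs of CS and 8 of DCAKD. In CS the reverse never occurred, and in DCAKD it did in 3 pairs.

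The longest overlaps of CS were 222, 177 and 177 nt. The first joined DHX9-mAb chr12:56683682-56683988 to DHX9-Rb chr12:56683561-56683903. The closest in position joined chr12:56670630-56670806 to chr12:56670496-56670931, with midpoints 4.5 nt apart. In DCAKD the longest were 316, 308 and 278 nt, and the third, DHX9-mAb chr17:43136153-43136430 inside DHX9-Rb chr17:43136056-43136522, had midpoints 2.5 nt apart. Another DCAKD pair had nearly equal edges, DHX9-mAb chr17:43133161-43133373 and DHX9-Rb chr17:43133152-43133375, with 213 and 224 nt.

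A few calls were marginal. The DHX9-mAb peak chr12:56670265-56670391 of CS met its DHX9-Rb partner chr12:56669985-56670269 by 5 nt. That partner also met a second DHX9-mAb peak, chr12:56669877-56670161, by 177 nt. The DHX9-mAb peak chr12:56679141-56679286 met its partner by 35 nt. In DCAKD the smallest overlap was 61 nt. The single DHX9-mAb peak without a partner, chr17:43122192-43122395 of DCAKD, ended 6 nt before the DHX9-Rb peak that begins at 43122402. On the other side, 1 unpartnered DHX9-Rb peak of CS and 4 of DCAKD lay within 100 nt of a DHX9-mAb peak.

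No minus-strand peak lay in the 50 kb beyond either end of DCAKD, while such peaks went on beyond the 5′ end of CS. Around DCAKD, the nearest DHX9-mAb peaks on the minus strand were 76471 nt beyond its 3′ end and 2409332 nt beyond its 5′ end, and the nearest DHX9-Rb peaks were 75724 and 90797 nt away. On the plus strand, the 50 kb beyond its 5′ end held 1 DHX9-mAb and 17 DHX9-Rb peaks, the first of them 6660 and 4721 nt away. In GENCODE release 29, which is on assembly GRCh38, the gene NMT1 (an enzyme that attaches myristate to proteins) lies on the opposite strand there and overlaps DCAKD. Beyond the 5′ end of CS, minus-strand peaks went on, with 3 DHX9-mAb and 22 DHX9-Rb peaks between 56696225 and 56708624. The first began 4553 nt (DHX9-mAb) and 2048 nt (DHX9-Rb) from the span. All 3 DHX9-mAb peaks met a DHX9-Rb peak there, against 88.0% of the whole DHX9-mAb list. Of the 22 DHX9-Rb peaks, 3 were partnered, against 28.6% of the whole DHX9-Rb list. The 50 kb beyond the 3′ end of CS held 2 DHX9-mAb and 3 DHX9-Rb peaks on the minus strand, the nearest 21006 and 20960 nt away. The same annotation has CNPY2 next to CS on the same strand, and a coding gene named AC073896.1 that overlaps CS on the same strand. Peaks cannot be assigned to CS rather than to that overlapping gene from position alone.

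Both genes belong to the dense runs of DHX9-Rb peaks, in which they took different places. Runs were formed from DHX9-Rb peaks on 1 strand with gaps up to 10 kb, and 82 runs held at least 30 peaks. Over these runs, the median share of DHX9-Rb peaks overlapped by DHX9-mAb was 39.7% (interquartile range 29.1 to 48.3, range 13.2 to 85.7). The run with CS included the peaks beyond its 5′ end and held 11 DHX9-mAb and 51 DHX9-Rb peaks over 38.64 kb, with 10 partnered (19.6%). Of the 82 runs, 9 had a lower share. The run with DCAKD was the gene's own 49 DHX9-Rb peaks over 28.664 kb, and 39 runs had a share below its 38.8%. By DHX9-Rb density the runs with CS and DCAKD had 1.32 and 1.71 peaks per kb, against a median of 1.37 over all runs. The run with DCAKD was thus near the middle of dense runs in the share marked by DHX9-mAb. The run with CS was low among them although its density was close to the median. Of its DHX9-Rb peaks, 22 lay beyond the CS span, with 3 partnered, and the share within CS alone was 24.1%. The pair was chosen for this contrast, so its ranks are a description.

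**Figure D5:**
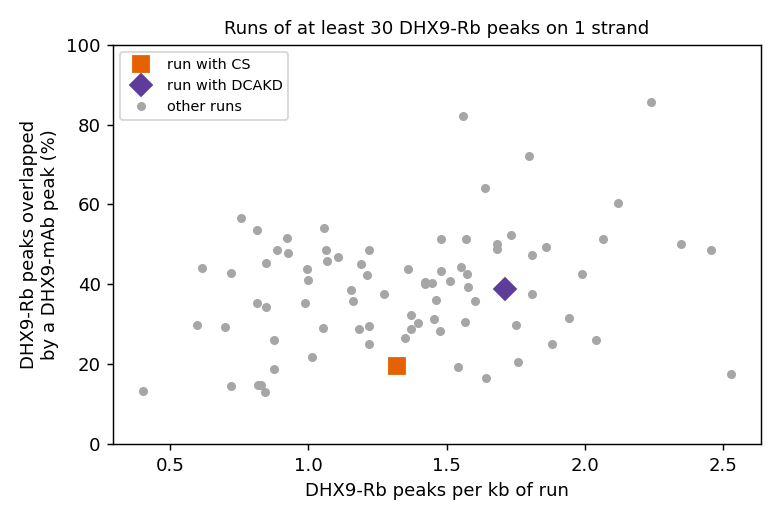
Each of the 82 runs of at least 30 DHX9-Rb peaks on 1 strand, by DHX9-Rb peaks per kb and by the percentage of them that overlap a DHX9-mAb peak. The run with CS (orange square) stands at 19.6% and the run with DCAKD (purple diamond) at 38.8%; grey points are the other runs.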

How the data were processed

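Per the labels' protocols, cells were irradiated, lysed and sonicated, the protein was captured on antibody-coated beads, RNA was trimmed with RNase I, and adapters were ligated whose barcodes mark antibody and replicate and whose random bases allow PCR duplicates to be merged. IgG and DHX9 material were pooled ahead of reverse transcription. Bowtie2 2.2.6 and hg19 are named in the submitters' processing notes, and the files' second column names PEAKachu. For PEAKachu, no version, control, threshold or treatment of repeat reads is given in the sources used here, and reads that map to many Alu copies could change which peaks were called. Start and end of each peak (counted from 1) and its strand were deposited by the authors; the score column holds 0 numbers.

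Peaks overlapping each span on its strand were taken, and a peak was partnered when it shared 1 nt or more with a peak of the other antibody on that strand. Gaps, widths and distances follow from the positions. The overlap code was tested on simulated lists. Named peaks were the widest, the outermost, those beside the longest gaps, unpartnered DHX9-mAb peaks and the longest overlaps; the closest and marginal pairs were chosen after their values were seen. The genes and summaries were chosen with earlier results of these data known. No test was run, since the lists hold no values per sample. Software was Python 3.11.15 with pandas 2.3.3, NumPy 2.4.6, SciPy 1.17.1 and matplotlib 3.10.9.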

Additional observations from a re-analysis of the deposited data

How the results depend on the processing

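CS kept the lower share of partnered DHX9-Rb peaks under all 7 alternatives to the overlap rule, merging, the measure and the span, with a difference, CS minus DCAKD, of -18.2 to -10.1 percentage points. All 7 reuse nearly the same peaks. They do not narrow the interval of the main difference (-33.0 to 7.16 points). That interval is wide, and it tests nothing because the pair was chosen with this share known. A partner required to cover 50% of the DHX9-Rb peak lowered the shares to 10.3% in CS and 20.4% in DCAKD. The whole list then had 21.2%, so DCAKD stood no higher than the list under that rule. It stayed above the list with an overlap of at least 50 nt (38.8% against 26.8%) and with merging (46.2% against 27.8%). It also did so with the DHX9-mAb midpoint inside the DHX9-Rb peak (34.7% against 24.6%) and by covered nucleotides (27.8% against 22.0%). Merging peaks within 50 nt raised the DHX9-Rb medians of DCAKD to 308 nt in width and 602.5 nt from start to start. Merging joins the closest neighbours and so removes the shortest distances. In CS it gave 685.5 nt from start to start with DHX9-Rb. Extending the span by 5 kb took the DHX9-mAb peaks of CS from 8 to 9. With the added peak their start-to-start median was 2998 nt. The other alternatives, runs included, moved no value beyond its 95% interval and no peak number by over 1.5 times, apart from the share of the whole list (21.2% to 27.8%), whose interval is narrow. No paired analysis was possible because each list stands for both replicates, and no replicate could be left out. The unknown read depth limits all values: a site without a DHX9-mAb peak is not shown to be unbound.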
